A study of Mus musculus with 54 samples.

Results

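The genes examined are 8 serine protease genes of the testis, namely Prss50, Prss42, Prss44, Prss45, Prss46, Prss38, Prss21 and Prss37. They were taken by symbol from a fixed list, and 8 of 8 were found among the 23284 genes of the count tables. RNA was sequenced from whole testis (cell suspensions enriched for germ cells), sorted round spermatids (RS) and sorted spermatocytes (SC) of C57BL/6 mice aged 3 months, and peaks of CTCF, BORIS, RNA polymerase II (Pol2) and histone H3 lysine 4 trimethylation (H3K4me3) were mapped in testis enriched for germ cells. There were 4 genotypes: wild type (WT), Ctcf+/- (CTCF HET), Boris-/- (BORIS KO) and the combined mutant Ctcf+/-Boris-/- (CM, labelled DKO), bred from CTCF HET females and BORIS KO males. Every cell of the mutant mice carried the alleles, germ cells and somatic cells alike, and 1 Ctcf allele remained in CTCF HET and CM. Each group had 3 RNA libraries, except WT SC with 2, and each preparation of germ cells pooled 4 mice.

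Serine proteases of the trypsin family cut proteins with a catalytic triad of histidine, aspartate and serine, and many members of the family are made only in male germ cells, where they sit on the sperm surface or in the acrosome. Prss50 (testis-specific protease 50) has lost the catalytic serine, and Prss37 is also a protease-like protein without a complete triad that is needed for the processing of the sperm surface protein ADAM3. Prss21 (testisin) is anchored in the sperm membrane by a lipid, and Prss42 and Prss44 are known from germ cells in meiosis. CTCF is a zinc finger protein that binds DNA and organises chromatin, and BORIS (gene Ctcfl) is its paralog in the testis, with nearly the same zinc fingers.

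Of the 8 genes, 5 lie close together on the plus strand of mouse chromosome 9 (mm9), in the order Prss42 (chr9:110700670-110706240), Prss44 (chr9:110716498-110727027), Prss45 (chr9:110737092-110743817), Prss46 (chr9:110747010-110759026) and Prss50 (chr9:110760471-110767132). The group spans 66463 bases and holds 6 protein-coding genes, since Prss43, which is not on the list, sits between Prss44 and Prss45. Prss38 lies on the minus strand of chromosome 11 (chr11:59186171-59189159), Prss21 on the plus strand of chromosome 17 (chr17:24005023-24010081) and Prss37 on the minus strand of chromosome 6 (chr6:40464823-40469507). Prss38 shares 163 exonic bases with the antisense transcript Gm15755, and the use of strand in counting was not stated, so reads of the pair could not be told apart.

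The 150 bases upstream of 6 of the start sites are given from mm9, 5′ to 3′ on the strand of the gene, because CTCF and BORIS bind at 2 of them and 4 of them share a short motif. Capitals mark stretches that match at least 10 of 12 letters of the CTCF core consensus on either strand (in Prss50 and Prss38) and the palindromic E-box CACGTG (in Prss38, Prss45, Prss44 and Prss42).
Prss50, chr9:110760321-110760470, plus strand: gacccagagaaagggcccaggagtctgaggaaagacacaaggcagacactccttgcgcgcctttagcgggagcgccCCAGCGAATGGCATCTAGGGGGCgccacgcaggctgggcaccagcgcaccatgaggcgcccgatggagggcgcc
Prss38, chr11:59189160-59189309, minus strand: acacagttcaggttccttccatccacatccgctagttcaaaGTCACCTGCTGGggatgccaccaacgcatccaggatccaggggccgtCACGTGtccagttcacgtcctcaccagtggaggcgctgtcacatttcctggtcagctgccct
Prss46, chr9:110746860-110747009, plus strand: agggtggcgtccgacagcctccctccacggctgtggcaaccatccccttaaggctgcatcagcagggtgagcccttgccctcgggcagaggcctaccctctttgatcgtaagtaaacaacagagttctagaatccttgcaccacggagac
Prss45, chr9:110736942-110737091, plus strand: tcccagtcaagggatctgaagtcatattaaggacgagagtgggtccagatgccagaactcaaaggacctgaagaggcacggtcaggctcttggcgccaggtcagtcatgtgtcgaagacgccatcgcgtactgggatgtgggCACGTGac
Prss44, chr9:110716348-110716497, plus strand: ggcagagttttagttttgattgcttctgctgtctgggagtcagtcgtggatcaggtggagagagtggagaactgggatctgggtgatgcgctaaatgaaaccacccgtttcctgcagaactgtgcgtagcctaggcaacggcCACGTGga
Prss42, chr9:110700520-110700669, plus strand: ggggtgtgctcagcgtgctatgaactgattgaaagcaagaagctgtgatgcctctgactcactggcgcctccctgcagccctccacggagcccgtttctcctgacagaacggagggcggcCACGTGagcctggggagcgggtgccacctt

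Prss50 held 3 overlapping CTCF core matches with 10 of 12 letters, at 74, 65 and 63 bases upstream of the start, and 67.3% of its window was G or C. Prss38 held 1 match with 11 of 12 letters on the opposite strand, 109 bases upstream. This stretch lies outside the 100 bases around the CTCF summit of WT at Prss38. The best match within those bases had 10 of 12 letters and was centred 14 bases from the summit. It crosses the start of the gene, so the window cuts it and it is not in capitals. At 10 or more letters the core was found in 18.5% of 20243 windows of the same length and at 11 or more in 3.13%. The E-box was found in 4 of the 8 windows and in 4.87% of all windows. It lay 8 bases upstream of both Prss45 and Prss44, 30 bases upstream of Prss42 and 62 bases upstream of Prss38. It was searched for after the sequences had been read. The cyclic AMP response element TGACGTCA was in 0 of the 8 windows and in 1.78% of all, and its core TGACG was in Prss38 alone and in 15.4% of all, on either strand. A match of letters is a description and does not show that a protein binds there.

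Depth and labels were checked first. Total counts per library ran from 10437683 to 42055813 in whole testis, from 47740650 to 98545423 in RS and from 53337530 to 88946702 in SC. Levels are given as CPM, each count relative to the total of its library after TMM scaling within a preparation, and in the comparison of WT RS with WT SC after TMM scaling over the 5 libraries of both. In whole testis Ctcf followed the labels, at 42.67 ± 2.17 CPM in WT (SD, n = 3), 27 ± 3.75 CPM in CTCF HET, 34.5 ± 4.04 CPM in BORIS KO and 25.86 ± 1.35 CPM in CM, and passed the test in CM alone (log2 fold change -0.74, adjusted p = 0.0329, against -0.66 and adjusted p = 1 in CTCF HET, by edgeR). Ctcfl had 18, 9 and 8 counts in WT testis, 8 in each CTCF HET library, 7, 5 and 3 in BORIS KO and 8, 2 and 2 in CM, too few for a test. In sorted cells it did not: the RS libraries labelled CM held 177, 47.9 and 39.8 CPM of Ctcf against 49.6, 31.2 and 29.6 CPM in WT, the SC libraries labelled CM held 83.6, 33.1 and 32.4 CPM against 33.8 and 32 CPM, and the SC libraries labelled CTCF HET held 42.8, 50.5 and 31.3 CPM. The same sorted libraries also had fewer genes with a count, with 14932 to 16670 in RS labelled CM (other RS 17504 to 18978), 12018 to 13406 in SC labelled CTCF HET and 14145 to 16666 in SC labelled CM (WT and BORIS KO SC 17631 to 17970). In RS Ctcfl ran the way of the labels, at 2.9, 5.11 and 3.4 CPM in WT, 2.12, 2.22 and 2.46 CPM in BORIS KO (-0.78 ± 0.25, adjusted p = 0.0248 by edgeR) and 2.63, 1.82 and 1.11 CPM in the libraries labelled CM (-0.998 ± 0.48, adjusted p = 0.285). Ctcfl RNA was thus not absent in BORIS KO RS, where 55.8% of all genes tested were called, so its fall is a weak check of the labels. Directions drawn from the sorted libraries labelled CM, and from SC labelled CTCF HET, rest on labels that Ctcf did not follow. The 3 whole testis libraries of a genotype came from independent preparations. For the sorted cells this was not stated, and p-values there measure the spread between libraries, which may be technical.

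All 8 genes were expressed in WT testis, over a wide range. Per kilobase of exon, Prss37 was the highest at 231 ± 33.9 CPM per kb (SD, n = 3), followed by Prss21 at 89.2 ± 5.76 and Prss46 at 63.1 ± 11.8. Prss45 (32.4 ± 6.97), Prss42 (23.7 ± 4.6) and Prss44 (21.3 ± 2.7) came next and each overlapped its neighbour in this order. Prss38 (5.45 ± 0.642) and Prss50 (4.9 ± 1.35) were the lowest and overlapped each other. The order was different in the sorted cells. In WT RS Prss46 led with 133 ± 4 CPM per kb, ahead of Prss21 at 115 ± 5.33, and Prss50 was last at 0.586 ± 0.203. In WT SC Prss42 led with 96.2 ± 3.18 CPM per kb (n = 2), and Prss37 (0.643 ± 0.125) and Prss50 (0.0218 ± 0.00626) were last. Whole testis RNA was depleted of ribosomal RNA and sorted cell RNA was selected by its poly(A) tail, so levels of the preparations are side by side and were not tested against each other.

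**Figure D1:**
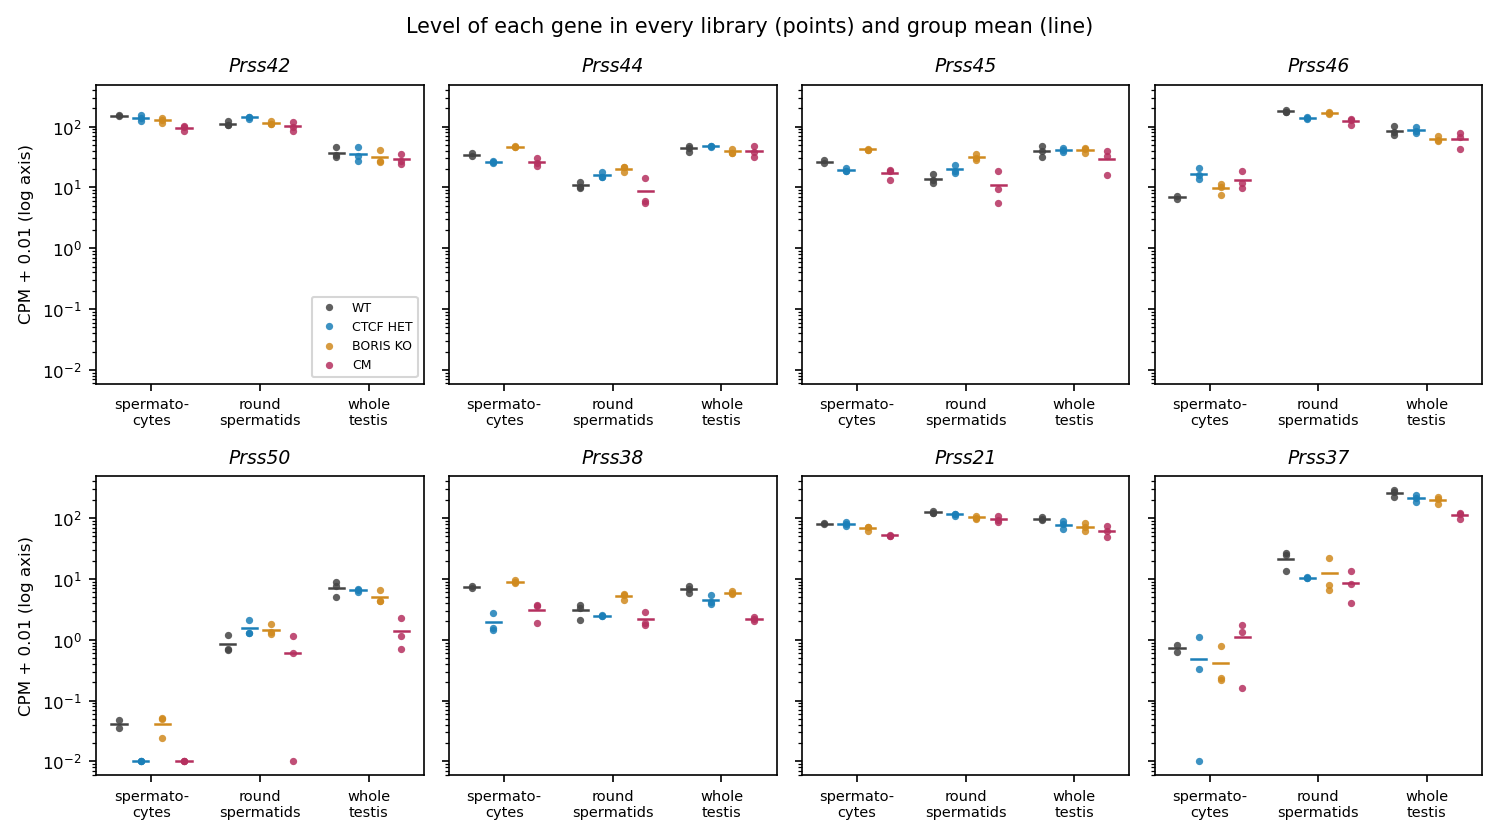
Level of each of the 8 genes in every library, as CPM plus 0.01 on a log axis, by preparation and genotype (points are libraries, lines are group means, and CM means labelled CM). The 3 CM libraries of whole testis lie below all WT libraries for Prss50, Prss38, Prss37 and Prss21, and Prss50 is at 0 in all SC libraries labelled CTCF HET or CM.

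The comparison of WT RS with WT SC asked in which of these germ cells each gene is used. Along the chromosome 9 group the genes fell on either side: the 3 listed genes at its left end were higher in SC, and the neighbours Prss46 and Prss50 at its right end were higher in RS. Prss46 had 166, 163 and 162 CPM in RS and 6.09 and 6.72 CPM in SC, a log2 fold change of 4.67 ± 0.12 (SE, adjusted p = 1.35e-07 by edgeR). Prss37 had 12.1, 23 and 24.1 CPM in RS and 0.773 and 0.583 CPM in SC, a log2 fold change of 4.86 ± 0.39 (adjusted p = 2.53e-05). For both genes every RS library was far above every SC library.

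Prss50 had 0.628, 0.612 and 1.09 CPM in RS and 0.0238 and 0.0357 CPM in SC (log2 fold change 4.63 ± 0.63, adjusted p = 0.000411 by edgeR). Behind these values stood 153 counts in RS and 5 counts in SC, whose ratio, scaled by the reads counted, was 24.6 (exact 95% interval 10.3 to 76.8, counting error only). Prss21 had 109, 122 and 113 CPM in RS and 75.4 and 76.3 CPM in SC, a smaller difference of 0.60 ± 0.10 on the log2 scale.

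Prss44 was the gene most shifted towards SC, with 30.9 and 34 CPM in SC and 11, 9.32 and 9.13 CPM in RS (log2 fold change -1.72 ± 0.14, adjusted p = 2.52e-05 by edgeR). Prss38 had 6.68 and 7.17 CPM in SC and 3.28, 3.12 and 1.96 CPM in RS (-1.31 ± 0.25). Prss45 (-0.95 ± 0.17) and Prss42 (-0.47 ± 0.10) were also lower in RS in every library. Prss43, the unlisted gene between Prss44 and Prss45, went the same way (-2.03 ± 0.13). In all, 8 of 8 genes passed the test, 4 higher in RS and 4 higher in SC, where 70% of the 16052 genes tested passed it. The 4 genes higher in SC were the ones whose upstream windows hold the E-box, and Prss43, also higher in SC, holds none. The motif was picked after the sequences had been read, and Prss42, Prss44 and Prss45 are neighbours on chromosome 9. How often the E-box occurs among all genes higher in SC or in RS was not counted. A link between the motif and the stage was thus not tested.

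**Figure D2:**
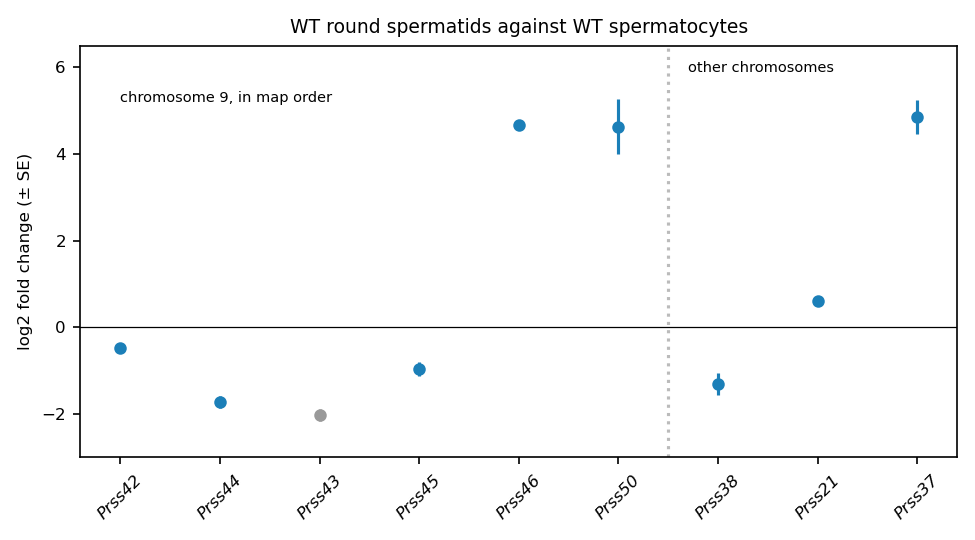
Log2 fold change of each gene in WT round spermatids against WT spermatocytes with its SE (blue, listed genes, grey, Prss43), the chromosome 9 genes in map order. Prss42, Prss44, Prss43 and Prss45 lie below 0, and Prss46 and Prss50 lie above 4.

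In whole testis the comparison of CM with WT asked what loss of BORIS together with 1 Ctcf allele does. In CM 3 genes were lower, Prss50 most of all, and none was higher. Prss50 had 8.8, 4.97 and 7.65 CPM in WT and 2.23, 1.16 and 0.708 CPM in CM. The CM libraries all lay below the WT libraries, with 92, 19 and 9 counts of Prss50 behind them, and the gene was 5.04-fold lower (log2 fold change -2.33 ± 0.45, adjusted p = 0.0161 by edgeR). Of the 16378 genes tested, Prss50 ranked 36 from the lowest fold change. In a bulk sample, fewer cells of a type and less RNA per cell cannot be told apart.

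Prss38 had 7.55, 6.82 and 5.96 CPM in WT and 2.32, 2.2 and 2.05 CPM in CM, a 3.12-fold decrease (-1.64 ± 0.28, adjusted p = 0.0154 by edgeR). Prss37 had 265, 294 and 218 CPM in WT and 98.2, 119 and 116 CPM in CM, a 2.35-fold decrease (-1.23 ± 0.23, adjusted p = 0.0159). Neither pair of groups overlapped, a separation that was not counted over all genes. Prss21 also had all CM libraries (48.9, 74.8 and 61.7 CPM) below those of WT (96.7, 91.8 and 104 CPM), yet missed the threshold (-0.67 ± 0.24, adjusted p = 0.0664). The 4 neighbours of Prss50 overlapped between the genotypes and were not called, with log2 fold changes of -0.46 ± 0.28 for Prss46, -0.45 ± 0.36 for Prss45, -0.36 ± 0.25 for Prss42 and -0.17 ± 0.24 for Prss44. Prss46, the nearest of them, had 71.6, 80.6 and 103 CPM in WT and 42.8, 77 and 66.6 CPM in CM.

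Thus 3 of 8 genes were called, all lower, where 25.2% of all genes tested were called and 8.8% were called lower. The median log2 fold change was -0.568 over the 8 genes and 0.003 over all genes. DESeq2 called 4 (Prss21 in addition), with 5417 of all 16378 genes tested. With the thresholds of the study (adjusted p under 0.001 and fold over 2) it called the same 3 genes, against 9.98% of all genes. Single libraries decided the calls: without WT replicate 2, WT replicate 3 or CM replicate 3 the test called 11, 3 and 4 genes in all and 0 of these 8, with an adjusted p of 0.0648, 0.0603 and 0.0572 for Prss50 and a log2 fold change of -2.55, -2.30 and -2.00. Without CM replicate 2, Prss21 was called as well (adjusted p = 0.0466 by edgeR), with 4920 of 16848 genes in all. Scaled by library totals alone, the same 3 genes were called with smaller changes (-1.89 for Prss50, -1.21 for Prss38 and -0.81 for Prss37), Prss44 and Prss42 changed sign without a call (0.26 and 0.08), and of all genes called 477 of 5423 were lower, against 1442 of 4135 with TMM. With the replicate number as a block, which pairs the libraries in whole testis, 4 genes were called, with adjusted p = 0.000467 for Prss50 and 0.0219 for Prss21 by edgeR. This fit called 7043 of all 16378 genes tested, so 4 of 8 lay near the share of all genes.

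Markers of cell types moved with the genotype. The summed level of 7 round spermatid markers was 1870 to 2100 CPM in WT and 945 to 1210 CPM in CM, and that of 5 elongating spermatid markers 13500 to 21800 CPM and 3710 to 11700 CPM. Sums over 5 Leydig cell markers (353 to 511 CPM in WT, 1730 to 3420 CPM in CM), 5 Sertoli cell markers (197 to 297 and 502 to 1010 CPM) and 4 macrophage markers (50.8 to 101 and 145 to 317 CPM) and 6 spermatogonial markers (31.1 to 51.2 and 95.8 to 386 CPM) were higher in every CM library, and none of the markers counted was at 0 throughout a group. For 6 spermatocyte markers the sums were 694 to 747 CPM in WT and 540 to 654 CPM in CM. Gene by gene, the spermatogonial markers had a median log2 fold change of 0.575 (-0.495 to 2.864, 2 called higher). The spermatocyte markers had one of -0.075 (-0.935 to 0.176, 1 called lower). The spermatogonial list holds Kit, which the study also found in meiotic and post-meiotic cells of CM testis. The part of these cell types in the fall of the 3 proteases was not tested. As a measurement added after seeing the data, each gene was divided by the sum of the round spermatid markers in its library. Prss50 then had 4.2, 2.56 and 4.09 CPM per 1000 CPM of markers in WT and 2.35, 0.954 and 0.642 in CM, still with all CM libraries lower and the WT mean 2.75 times that of CM. Prss38 (WT mean 1.68 times that of CM) and Prss37 (1.28 times) also stayed apart. Prss44 (22.3 ± 1.75 in WT and 36.4 ± 6.27 in CM) and Prss42 (18.8 ± 2.65 and 27.5 ± 9.11) were higher in all CM libraries on this scale. The sum of markers was itself lower in CM, so a gene whose CPM changed little must rise on this scale. The rise of Prss44 and Prss42 is therefore no result about these genes. Relative to the elongating spermatid markers Prss50 overlapped between WT and CM (0.647, 0.367 and 0.35 against 0.6, 0.125 and 0.0605 CPM per 1000 CPM), and so did Prss38 (0.555, 0.504 and 0.273 against 0.626, 0.237 and 0.175) and Prss37 (19.5, 21.7 and 10 against 26.5, 12.8 and 9.94, the WT mean being 1.04 times that of CM).

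The single mutants showed smaller differences. In CTCF HET testis Prss50 had 6.53, 6.9 and 5.99 CPM, within the range of WT (-0.14 ± 0.26, adjusted p = 1 by edgeR). Prss38 had 4.21, 3.85 and 5.48 CPM, below WT in 3 of 3 libraries (-0.60 ± 0.24, unadjusted p = 0.0373 and adjusted p = 1 by edgeR). No gene of the 8 was called by edgeR or DESeq2, and 0.00621% of all genes tested were called by edgeR. Of the 8, 1 had an unadjusted p under 0.05 by edgeR, as did 424 of all 16097 genes tested.

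In BORIS KO testis Prss50 had 4.35, 4.33 and 6.6 CPM and overlapped WT (-0.47 ± 0.29, adjusted p = 0.421 by edgeR), and Prss38 did as well, with 6.24, 5.78 and 5.61 CPM (-0.20 ± 0.19). Prss46 (-0.42 ± 0.19) and Prss21 (-0.43 ± 0.16) lay below WT in all libraries without passing the test (adjusted p = 0.312 and 0.251). Again 0 of 8 were called by edgeR or DESeq2, against 0.0551% of all genes by edgeR. Of the 8, 1 had an unadjusted p under 0.05 by edgeR, as did 2717 of all 16344 genes tested.

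Against BORIS KO, which carries the same Boris deletion, CM testis had 3 of 8 genes in which the libraries did not overlap. How many of all genes were so separated was not counted, so this is no result about the 8. Prss50 was 3.63-fold lower (-1.86 ± 0.43), Prss38 2.73-fold lower (-1.45 ± 0.27) and Prss37 1.82-fold lower (-0.87 ± 0.23), each with an adjusted p of 0.144 by edgeR, so 0 of 8 were called where 0.006% of all genes were. These 3 genes had an unadjusted p under 0.05 by edgeR, as did 3594 of all 16655 genes tested. They were called by DESeq2, as were 1201 of the 16655. With the replicate number as a block edgeR called the same 3 (adjusted p = 0.0346, 0.0337 and 0.0494), with 7.36% of all genes. Without CM replicate 2 edgeR called Prss38 (adjusted p = 0.0381), with 1282 of 17182 genes in all. The CM libraries are shared with the comparison against WT.

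The 4 genotypes of whole testis also allow a test of whether the CM change differs from the sum of the single mutants' changes on the log2 scale. For Prss50 the difference was -1.67 ± 0.51 (unadjusted p = 0.00588 and adjusted p = 0.473 by edgeR) and for Prss38 -0.82 ± 0.32 (unadjusted p = 0.0236 and adjusted p = 0.475). Neither passed, and 0% of 17185 genes were called by edgeR (1713 at an unadjusted p under 0.05), while DESeq2 called 38 genes and 0 of the 8.

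**Figure D3:**
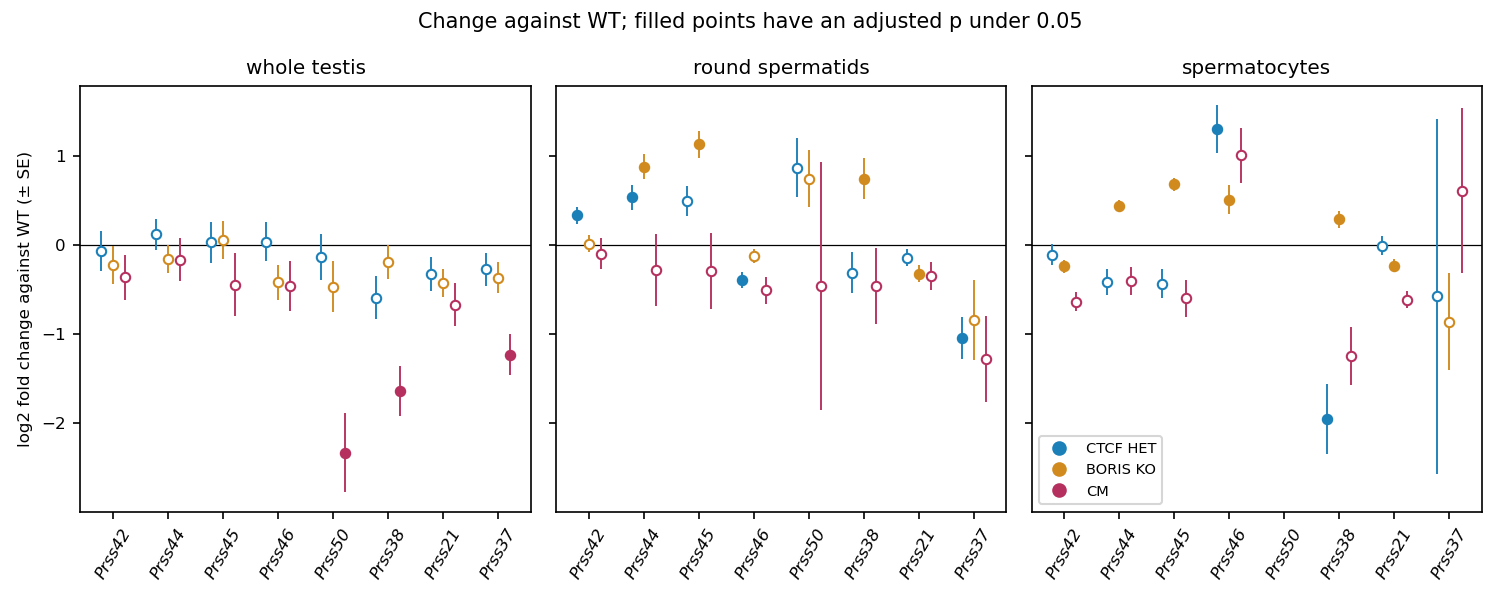
Log2 fold change against WT with its SE for each gene in whole testis, round spermatids and spermatocytes (blue CTCF HET, orange BORIS KO, red labelled CM, filled where the adjusted p by edgeR is under 0.05). Filled red points appear in whole testis for Prss50, Prss38 and Prss37, and Prss50 was too low to be tested in spermatocytes.

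In round spermatids Prss50 was not called in any genotype. It had 0.701, 0.663 and 1.19 CPM in WT RS, 1.3, 2.08 and 1.3 CPM in CTCF HET and 1.31, 1.23 and 1.82 CPM in BORIS KO. All libraries of both single mutants lay above WT, without passing the threshold (0.86 ± 0.33, adjusted p = 0.0911, and 0.74 ± 0.32, adjusted p = 0.0773, by edgeR). Without WT replicate 3, the highest WT library, the BORIS KO difference passed (1.04, adjusted p = 0.0311). In the 3 libraries labelled CM the gene had 0, 90 and 39 counts, or 0, 1.16 and 0.595 CPM, where a count of 0 allows up to 0.0387 CPM (3 counts), and the comparison with WT was undecided (-0.46 ± 1.39, adjusted p = 0.89). All 3 lay below the BORIS KO libraries, without passing the test (-1.33 ± 1.30, adjusted p = 0.496).

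In BORIS KO RS 4 of 8 genes were called, near the 55.8% of all genes. Prss45, in 16.8, 11.8 and 13.3 CPM of WT and 35.2, 30 and 28.3 CPM of BORIS KO, rose 2.19-fold (1.13 ± 0.15, adjusted p = 0.000273 by edgeR). Prss44 (0.88 ± 0.14, adjusted p = 0.000737) and Prss38 (0.74 ± 0.23, adjusted p = 0.0211) rose as well, and Prss21 fell (-0.32 ± 0.09, adjusted p = 0.0167). In all 4 the groups did not overlap, and the share of all genes so separated was not counted. Without BORIS KO replicate 2 the calls of Prss38 and Prss21 were lost (adjusted p = 0.0726 and 0.0802), and Prss38 was also lost without BORIS KO replicate 1 or WT replicate 3 (adjusted p = 0.0756 and 0.0565) and Prss21 without BORIS KO replicate 3 (adjusted p = 0.0548). Scaled by library totals alone, the log2 fold change of Prss21 was 0.01. Prss37, with 13.5, 24.9 and 26.2 CPM in WT and 6.6, 7.97 and 22.4 CPM in BORIS KO, overlapped through the third BORIS KO library and was called without it (-1.58, adjusted p = 0.00559).

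In CTCF HET RS 4 of 8 were called against 22.3% of all genes. Prss37 fell from 13.5, 24.9 and 26.2 CPM to 10.4, 10.8 and 10.4 CPM (-1.05 ± 0.24, adjusted p = 0.017 by edgeR), and Prss46 fell from 185, 176 and 176 CPM to 132, 143 and 137 CPM (-0.40 ± 0.09, adjusted p = 0.0183). Prss44 (0.53 ± 0.14, adjusted p = 0.0292) and Prss42 (0.33 ± 0.10, adjusted p = 0.0439) rose. Groups did not overlap in these 4 genes, and how many of all genes were so separated was not counted. Without WT replicate 2, WT replicate 3 or CTCF HET replicate 1 none of the 8 was called, and without CTCF HET replicate 2 or 3 only Prss46 or only Prss37 was, the lost calls having an adjusted p of 0.054 to 0.165. Without WT replicate 1 Prss45 was called as well (0.64, adjusted p = 0.00749). The summed round spermatid markers were 2160 to 2300 CPM in WT RS, 1540 to 1640 CPM in CTCF HET and 1650 to 1760 CPM in BORIS KO. The spermatocyte markers summed to 866 to 1050 CPM in WT RS, 694 to 832 CPM in CTCF HET and 543 to 616 CPM in BORIS KO, and the part of either list in these differences was not tested.

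In the RS libraries labelled CM 0 of 8 genes were called against WT by edgeR, where 0.00654% of all genes were. Of the 8, 2 had an unadjusted p under 0.05 by edgeR, as did 3136 of all 15298 genes tested. DESeq2 called Prss46 of the 8, and 1819 of the 15298. All 8 log2 fold changes were negative, with a median of -0.406 against 0 over all genes. Prss46 had 126, 108 and 131 CPM, below all WT libraries (-0.51 ± 0.15, adjusted p = 0.17), as were Prss37 (-1.28 ± 0.49) and Prss21 (-0.35 ± 0.16). Against BORIS KO 1 of 8 was called, with 23.2% of all genes: Prss38 had 2.85, 1.72 and 1.91 CPM against 5.68, 5.52 and 4.49 CPM (-1.26 ± 0.36, adjusted p = 0.0451). This call was lost without any 1 of the 3 BORIS KO libraries or without replicate 3 labelled CM (adjusted p = 0.183, 0.18, 0.113 and 0.084). Without the first library labelled CM, the one with 177 CPM of Ctcf, edgeR called 4 of the 8 and 6336 of 15931 genes in all. Among the 4 were Prss45 (-2.07, adjusted p = 0.00916 by edgeR) and Prss44 (-1.84, adjusted p = 0.00411). Without the second, 3 of the 8 and 5708 of 15863 genes in all were called. In the libraries labelled CM the round spermatid markers summed to 1150 to 1640 CPM, and 6 spermatocyte markers to 1080 to 1620 CPM, against 866 to 1050 CPM in WT. Spermatogonial markers summed to 35.1 to 367 CPM against 22 to 28.7 CPM in WT, and elongating spermatid markers to 199 to 466 CPM against 643 to 751 CPM. Gene by gene, the median log2 fold change was 1.979 for the spermatogonial markers (-0.169 to 3.464, 0 called). For the spermatocyte markers it was 0.397 (-1.554 to 1.001, 0 called). Markers of Sertoli and Leydig cells were at or below 2.68 CPM in every RS library, with Insl3 at 0. The part of these cells in the differences was not tested.

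Spermatocytes held next to no Prss50 RNA. The gene had 2 and 3 counts in WT, 3, 4 and 1 in BORIS KO, and 0 in all 3 libraries labelled CTCF HET and all 3 labelled CM, which allows up to 0.0634 and 0.0418 CPM in the shallowest of each. These counts were too low for a test, and all groups lay near the limit that a count of 0 allows.

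Of the other 7 genes, 6 were called in BORIS KO SC, where 57.2% of all genes were. Prss45 had 24.8 and 27.9 CPM in WT and 41.9, 43.4 and 41.3 CPM in BORIS KO (0.68 ± 0.07, adjusted p = 9.34e-06 by edgeR). Prss46 (0.51 ± 0.16), Prss44 (0.44 ± 0.07) and Prss38 (0.29 ± 0.10) also rose, and Prss42 (-0.24 ± 0.07) and Prss21 (-0.24 ± 0.07) fell. Each of these changes was under 2-fold, with no overlap between groups, a separation that was not counted over all genes. Without WT replicate 1 or WT replicate 2 only 3 of the 7 were called, Prss21 and Prss46 being lost each time (adjusted p = 0.0864 to 0.194), Prss46 also without BORIS KO replicate 3 (adjusted p = 0.0636), Prss38 without the first WT library (adjusted p = 0.152) and Prss42 without the second (adjusted p = 0.0775). Prss37 was called without BORIS KO replicate 1 (-1.72, adjusted p = 9.2e-06), the library with 58 counts against 22 and 15 in the other two.

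In SC libraries labelled CTCF HET, 2 of 7 genes were called, with 15.5% of all genes. Prss38 had 1.45, 1.57 and 2.75 CPM against 7.11 and 7.67 CPM in WT, a 3.87-fold decrease (-1.95 ± 0.39, adjusted p = 0.019 by edgeR). Prss46 had 15.8, 20.9 and 13.5 CPM against 6.47 and 7.19 CPM, an increase of 1.29 ± 0.27 on the log2 scale (adjusted p = 0.0209). Neither overlapped WT, and both calls were lost without either WT library or without CTCF HET replicate 1 or 2 (adjusted p = 0.0544 to 0.223). Prss46 also had 9.72, 12 and 18.6 CPM in the libraries labelled CM (1.00 ± 0.31, adjusted p = 0.1), and Prss38 3.61, 3.65 and 1.89 CPM (-1.25 ± 0.33, adjusted p = 0.0786). In CM SC 0 of 7 genes were called by edgeR, against 0.604% of all genes. Of the 7, 6 had an unadjusted p under 0.05 by edgeR, as did 4391 of all 14747 genes tested. DESeq2 called 5 of the 7 and 3260 of the 14747. Without the first SC library labelled CM, which had 83.6 CPM of Ctcf, edgeR called 6 of the 7 and 5567 of 14317 genes in all. The adjusted p then ran from 0.00364 for Prss21 to 0.037 for Prss45. Round spermatid markers summed to 676 to 684 CPM in WT SC and 722 to 774 CPM in BORIS KO SC. In SC labelled CTCF HET the sum was 842 to 1090 CPM, and in SC labelled CM it was 602 to 675 CPM. Taken gene by gene, the 7 markers rose more than the sums show. Against WT, their median log2 fold change was 1.681 in SC labelled CM (-0.178 to 2.155, 0 called). It was 1.715 in SC labelled CTCF HET (0.388 to 2.14, 4 called higher). The BORIS KO median was 0.175 (0.001 to 0.491, 1 called higher). The part of round spermatids in the level of Prss46 was not tested.

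Whether a genotype moved a gene differently in RS and SC was tested by the interaction of cell type and genotype. In CTCF HET it passed for 6 of 8 genes (33.6% of all genes), in BORIS KO for 1 of 8 (13.4%) and in the libraries labelled CM for 1 of 8 (3.51%). Prss46 was the gene found in all 3, with an effect in RS minus that in SC of -1.59 ± 0.22, -0.71 ± 0.18 and -1.58 ± 0.33 on the log2 scale. The comparisons share the WT libraries. Without WT SC replicate 2 the test passed for 2 genes in CTCF HET, Prss46 and Prss44. In BORIS KO it passed for Prss46 only with all libraries or without RS replicate 3 or SC replicate 1 of BORIS KO, and for 5 genes, Prss46 among them, without WT RS replicate 1. In the libraries labelled CM the call was lost without any 1 of the WT libraries, RS replicate 3 or SC replicate 2.

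At the start sites, 2 of the 8 genes had peaks of both CTCF and BORIS in WT testis within 2 kb, Prss50 and Prss38. They were also the most reduced of the 8 in CM testis. The study had shown both among its examples of bound genes with changed expression in CM, and the 8 genes were chosen with earlier results known. A link between binding and the fall was thus not tested. Among 20245 protein-coding genes 30% had a CTCF peak there, 15.1% a BORIS peak and 12.1% both. The lists carry no replicate values, so these comparisons have no error. At Prss50 the WT CTCF peak (chr9:110760172-110760848, height 1298, above 73.5% of its list) had its summit 51 bases upstream of the start, in the window printed above and next to the capitals. The BORIS peak (chr9:110760228-110760640) had its summit 28 bases upstream, and its height of 1403 was rank 10 of 7652 BORIS peaks. No CTCF peak of CM overlapped the CTCF peak of WT, which was so for 1 of the 8 genes and for 21.7% of all genes. Of the genes with a WT CTCF peak at the start 72.6% had one without an overlapping CM peak, and of those with both proteins 61.3%, so the absence at Prss50 was common among bound genes.

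At Prss38 the CTCF peak of WT (chr11:59188618-59189434, height 3270, above 95.5% of its list) had a counterpart in CM (height 192, above 25.4% of its list), and the BORIS peak had a height of 372, above 93.3% of its list. The 3 summits lay 14, 35 and 37 bases upstream of the start. Heights are not on 1 scale between lists, since WT CTCF peaks reached 4391 and CM CTCF peaks 968. Prss21 had a CTCF peak inside the gene (height 948) without a CM counterpart and another within 5 kb downstream (height 307) that was found in CM (height 193). No CTCF or BORIS peak lay within 2 kb of the starts of Prss42, Prss44, Prss45, Prss46, Prss21 or Prss37.

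H3K4me3, a mark of active promoters, lay at 7 of the 8 starts in WT and in CM (54.6% and 58.9% of all genes), and Prss50 was the gene without it in both. Pol2 lay at 5 of 8 in both genotypes, at Prss46, Prss45, Prss44, Prss21 and Prss37 (40.8% and 48.5% of all genes), and not at Prss50, Prss38 or Prss42. At Prss37 the WT Pol2 peak covered the whole gene, over 6234 bases with a score of 1086.14, whereas CM had 2 short peaks at its ends of 943 and 908 bases with scores of 108.12 and 65.91. At Prss46 the WT Pol2 peak had a score of 567.64, and CM had 2 adjoining peaks with scores of 168.02 and 97.2. At Prss45 the score was 61.72 in WT and 184.37 in CM. These scores have no error and come from separate lists.

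**Figure D4:**
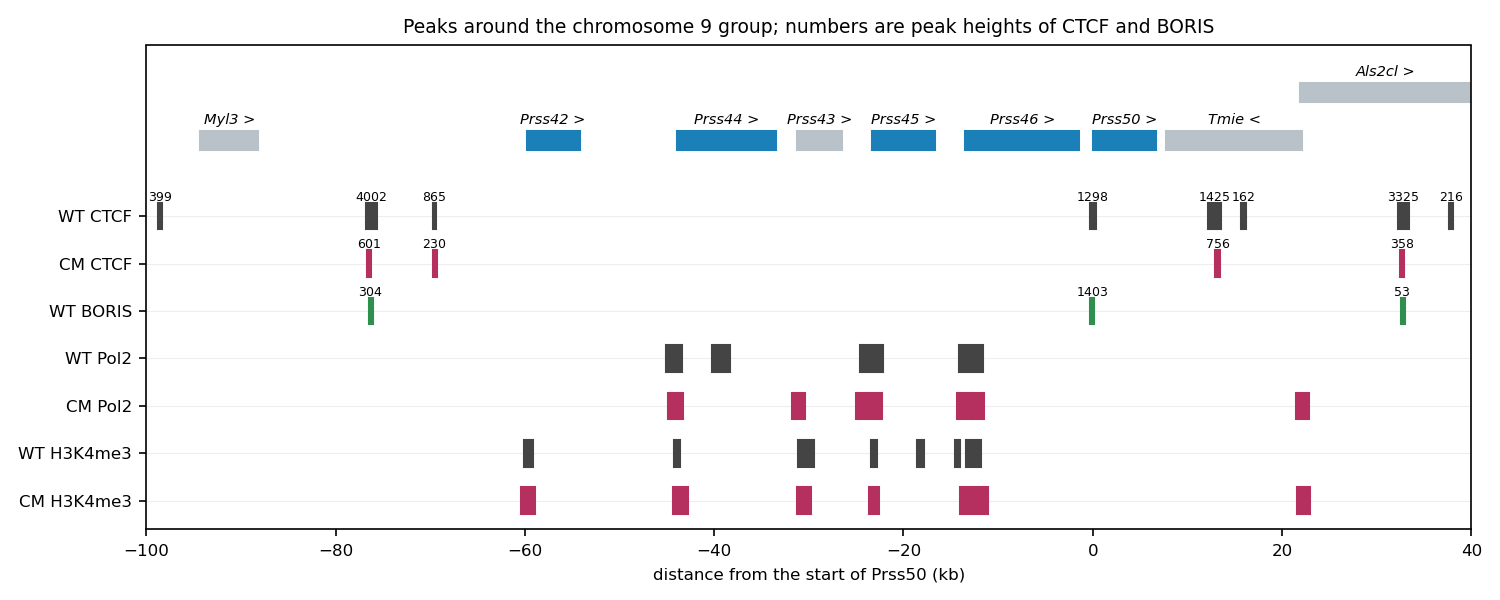
Genes (blue, listed genes, grey, others) and peaks of each list around the chromosome 9 group, by distance in kb from the start of Prss50, with heights of CTCF and BORIS peaks. CTCF peaks flank the group on both sides, 1 lies at the start of Prss50 with a BORIS peak, and none lies between Prss42 and Prss46.

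CTCF was also bound on either side of the group. Upstream of Prss42 the CTCF peak at chr9:110683717-110684811 (height 4002, above 99.5% of its list) carried BORIS (height 304) and had a CM counterpart of height 601. In the 100 bases around its summit the core consensus was matched in 11 of 12 letters on the minus strand (capitals), as in 52.3% of the 34625 WT CTCF summit windows at 11 or more letters.
Distal CTCF site, chr9:110684050-110684149, plus strand: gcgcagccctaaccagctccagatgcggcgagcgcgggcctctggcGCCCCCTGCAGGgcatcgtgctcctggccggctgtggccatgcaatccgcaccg
Downstream of Prss50, inside Tmie, a CTCF peak of height 1425 had a CM counterpart of height 756, higher than 97.6% of the CM list, and no BORIS peak. Nearer to Prss42 a lower CTCF peak (height 865) was also found in CM (height 230), and so was one 32.8 kb beyond the start of Prss50 (height 3325, in CM 358). Like the peak at the start of Prss50, 3 other WT CTCF peaks of the plotted region had no CM counterpart, with heights of 399, 162 and 216. Thus 4 of 8 WT CTCF peaks of the region were without one. The neighbouring gene Als2cl rose in CM testis (1.39 ± 0.37, adjusted p = 0.0281 by edgeR), and Pth1r (1.45 ± 0.59) and Tmie (0.85 ± 0.39) were not called. Pol2 and H3K4me3 peaks at the shared start region of Als2cl and Tmie were in the CM lists and not in those of WT.

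Of 14 other serine proteases of the testis 12 could be tested in CM against WT testis, and 7 were called lower and 0 higher, with a median log2 fold change of -1.038, where 8.8% of all genes were called lower and the median was 0.003. These calls rest on the same libraries as above, without some of which 3 to 11 genes in all were called. The largest fall was that of Prss41, from 5.46, 3.18 and 4.18 CPM in WT to 1.04, 0.671 and 1.18 CPM in CM (-2.17 ± 0.37, adjusted p = 0.0154 by edgeR), followed by Prss52 (-1.39 ± 0.41) and Prss51 (-1.37 ± 0.31). Prss41 was low in CTCF HET testis too, at 1.53, 0.733 and 1.62 CPM (-1.74 ± 0.36, adjusted p = 1), and not in BORIS KO (-0.01 ± 0.27). Acr, the acrosomal protease acrosin, was below WT in all CM libraries and not called (-0.85 ± 0.30, adjusted p = 0.0636).

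Of 14 genes linked with the maturation of ADAM3, a sperm surface protein, 4 were called lower and 0 higher in CM testis, with a median log2 fold change of -0.699, beside the same 8.8% and 0.003 over all genes and with the same dependence on single libraries. They were Ace, the germ cell angiotensin-converting enzyme (-1.06 ± 0.24, adjusted p = 0.0194 by edgeR), Adam1a (-1.05 ± 0.31), Adam3 itself (-1.05 ± 0.25) and the chaperone Calr3 (-1.02 ± 0.32). Of 9 listed inhibitors of serine proteases 3 could be tested, and Serpina5, the protein C inhibitor, rose from 43.2, 21 and 16.5 CPM to 154, 45.6 and 120 CPM (1.96 ± 0.49, adjusted p = 0.0242).

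Across the 12 whole testis libraries, the genes whose log2 level followed that of Prss50 most closely were Cmtm1 (Pearson's r = 0.962 over log2 of CPM plus 1), Ace (0.944), Atmin (0.94), Clint1 (0.937) and Trim46 (0.935), of 17184 genes. Among the 8, Prss37 (0.844) and Prss38 (0.835) were closest, and the chromosome 9 neighbours had 0.373 to 0.501. The libraries share genotype groups and their cell makeup, so these values only describe the likeness of patterns.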

How the data were processed

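The 8 genes, the lists and the thresholds were chosen with earlier results of these data known. Per the labels, the authors mapped whole testis reads with TopHat2 and Bowtie2 and sorted cell reads with STAR to mm9, and deposited raw counts per gene. The counting tool, annotation and strand use are not given in the sources used here. Whole testis was sequenced on an Ion Proton and sorted cells on a HiSeq2000. For CTCF and BORIS the authors deposited peak heights (signal, normalization not stated), and for Pol2 and H3K4me3 peak scores. CTCF, BORIS and Pol2 lists stand for 2 ChIP replicates and H3K4me3 lists for 1. The way replicates were combined is not given in the sources used here.

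Counts were filtered with filterByExpr (minimum 10, total 15), TMM-scaled and tested with edgeR 4.0.16 (quasi-likelihood F test, robust, R 4.3.3), with Benjamini-Hochberg adjustment over all genes tested, and called at adjusted p under 0.05. In all, 16 contrasts were fitted. DESeq2 1.42.0 was an alternative. The fit was run on simulated counts with known changes, the same dispersion for every gene and no effect shared between libraries. Real testis libraries did share such effects, so the simulation does not bear on how stable the calls are. Peaks count within 2 kb of a start, with an overlap of 1 base. Promoter windows and gene models were read from NCBIM37 (mm9) with GENCODE annotation. Named genes were all 8 members, the neighbours on each side, per list up to 3 genes past the test (largest change), and the 5 genes most like Prss50. Calr3, Acr and Prss43 are named in addition, chosen after their values were seen. Same-numbered testis libraries deviated together (18 of 18 pairs over r = 0.1, mean 0.43).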

Additional observations from a re-analysis of the deposited data

Results flagged for a closer look

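In 8 instances the effect of a genotype against WT differed between round spermatids and spermatocytes by edgeR's interaction test. In CTCF HET the effect in RS minus that in SC was -1.59 ± 0.22 on the log2 scale for Prss46 (adjusted p = 0.00136), 1.05 ± 0.19 for Prss44 (adjusted p = 0.00314), 1.03 ± 0.24 for Prss45 (adjusted p = 0.00874), 0.54 ± 0.14 for Prss42 (adjusted p = 0.0157) and 1.74 ± 0.47 for Prss38 (adjusted p = 0.0166). The median of all genes in that comparison was 0.334, so positive values are to be read against that shift. The value of 5.04 ± 1.29 for Prss50 (adjusted p = 0.0179) rests on spermatocyte counts of 0 in CTCF HET and of 2 and 3 in WT, depends on the prior count of the fit and is no bound. Prss46 also differed between the cell types in BORIS KO (-0.71 ± 0.18, adjusted p = 0.0265) and in the libraries labelled CM (-1.58 ± 0.33, adjusted p = 0.0262). In the sorted libraries labelled CM and the SC libraries labelled CTCF HET, Ctcf did not follow the labels and fewer genes had a count. The RS libraries labelled CTCF HET had 18511 to 18752 genes with a count, against 17504 to 17985 in WT RS. The part of such differences between libraries in the interactions was not tested.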

How the results depend on the processing

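Of 232 alternatives for 16 counts of called genes 165 stayed within 1.5 times the reported count. Of 1599 alternatives for 125 fold changes 1438 kept their side of the threshold, 93 lost the call, 66 gained it and 2 reversed. Direction was read only where a gene was called in the reported fit or in the alternative. Changes of sign without a call, as for Prss44 and Prss42 in CM testis, are among the 1438. The reversed ones, both in BORIS KO round spermatids scaled by library totals, were Prss46 (0.206, against -0.13) and Prss21 (0.011, against -0.32). Library totals alone moved the median log2 fold change of all genes from 0.003 to 0.434 in CM testis against WT and from -0.013 to 0.323 in BORIS KO RS. Where a value changed, the cause was not tested.

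Leaving out 1 library in turn gave, for the genes called of 8, 0 to 4 in CM testis against WT, 0 to 1 in CM testis against BORIS KO, 0 to 5 in CTCF HET RS, 2 to 4 in BORIS KO RS, 0 to 4 in CM against BORIS KO RS, 0 to 2 in CTCF HET SC, 3 to 7 in BORIS KO SC, 0 to 6 in CM SC, and 2 to 6, 0 to 5 and 0 to 1 in the cell type interactions of CTCF HET, BORIS KO and CM. DESeq2 called 3 in CM against BORIS KO testis, 1 in CM RS, 4 in CM against BORIS KO RS and 5 in CM SC. DESeq2 with the study's thresholds called 1 in CTCF HET RS, 1 in BORIS KO RS, 0 in CM against BORIS KO RS, 1 in CTCF HET SC, 0 in BORIS KO SC and 5 between WT RS and SC. A fold over 2 with edgeR left 1 in CTCF HET RS, 1 in BORIS KO RS, 0 in BORIS KO SC, 5 between WT RS and SC and 0 in the BORIS KO interaction. All 4 genotypes in one fit gave 3 in CM against BORIS KO testis, 0 in CTCF HET RS, 2 in BORIS KO RS, 2 in CM RS, 4 in CM against BORIS KO RS, 1 in BORIS KO SC and 4 in CM SC. RLE scaling gave 2 and library totals gave 4 in CM against BORIS KO RS, and library totals gave 3 in the BORIS KO interaction.

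The replicate block gave 3 calls in CM against BORIS KO testis. In sorted cells the samples share only a number (9 of 18 RS pairs and 2 of 15 SC pairs over r = 0.1), and the block gave 2 calls in CTCF HET RS. It moved no other count by over 1.5 times.

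For peaks, the count of genes whose CTCF peak lacked a CM counterpart was 2 within 5 kb and 2 with only the upper 50% of peaks, and Pol2 peaks of the upper 50% lay at 3 starts in WT and 3 in CM. Depth limits Prss50 most: 9 counts in the shallowest CM testis library and 0 to 4 in spermatocytes.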
